A study of Mus musculus with 5 samples.

Results

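The genes described here carry glucose into the cell, break it down to pyruvate, and decide what becomes of the pyruvate. They were taken as the rows of the deposited count table whose Ensembl identifier belongs to 1 of 40 mouse symbols listed by step of the pathway. Of these symbols, 39 had a row, *Aldoa* had 2 rows under different identifiers, and *Pdk4* was not analysed here. The list thus held 40 rows of the 20224 genes in the table. The rule itself used no expression value, but the list was chosen with earlier results of these data known.

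Glucose enters a cell through facilitative transporters of the Slc2a family. Hexokinase traps it as a phosphate, phosphofructokinase commits it to glycolysis, and aldolase splits the sugar into the triose phosphates from which pyruvate and ATP are made. Pyruvate is then reduced to lactate by lactate dehydrogenase and exported by monocarboxylate transporters, or it passes through the mitochondrial pyruvate carrier to the pyruvate dehydrogenase complex. The oxygen-sensitive subunit of the transcription factor HIF-1 is encoded by *Hif1a*, and many genes of glucose transport, glycolysis, lactate formation, and pyruvate dehydrogenase kinase are textbook HIF-1 targets. Neurons rely on a steady supply of glucose, and *Slc2a3* encodes their characteristic high-affinity transporter.

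The study asked how loss of *Hif1a* in the sympathetic lineage alters these neurons, and it sequenced sympathetic neurons of E14.5 mouse embryos from non-diabetic pregnancies. Both groups carried *Isl1-Cre*, a knock-in at the *Isl1* locus that was inherited from the father, together with the *tdTomatoAi14* reporter that Cre switches on and the *Prph-eGFP* transgene that marks peripheral neurons. Controls (*Hif1a loxP/+; Isl1Cre; tdTomatoAi14*) had 1 floxed allele, of which exon 2 is removed by Cre, and *Hif1aCKO* embryos (*Hif1a loxP/loxP; Isl1Cre; tdTomatoAi14*) had only floxed alleles. Therefore, the controls were heterozygous for the deletion in the sorted cells, and *Isl1-Cre* also acts outside the sympathetic lineage. The floxed mice were on a mixed C57BL/6J and C57BL/6N background and the Cre mice on an FVB background. Each library was made from 100 cells sorted for eGFP and tdTomato, and the groups held 2 control libraries, numbered 5 and 6, and 3 *Hif1aCKO* libraries, numbered 3, 4, and 5. Values per library are given below in this order. The protocol gives n = 2 control and n = 3 *Hif1aCKO* embryos, as many as there are libraries.

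Total counts ranged from 8254211 to 9700887 per library. *Hif1a* itself had 2086 and 1584 normalized counts in controls and 2747, 1758, and 2135 in *Hif1aCKO*. These counts cover the whole gene and not exon 2 alone, so they do not check the deletion. A normalized count is the count scaled to a common effective library size of 8747702. Defining sympathetic genes such as *Th* and *Dbh* were high in each library but differed between groups. Of 11 such genes, 7 had a lower and 4 a higher mean in *Hif1aCKO* (median log2 fold change -0.30), and at an unadjusted p-value under 0.05 in edgeR 5 were lower (*Th*, *Dbh*, *Isl1*, *Slc18a2*, and *Tubb3*) and 1, *Hand2*, was higher. *Th* had 2998 and 6985 normalized counts in controls and 1515 to 2582 in *Hif1aCKO*, and *Isl1*, whose locus carries Cre in both groups, 12577 and 14019 against 7799.9 to 8722. Of 6 chromaffin markers, 5 were tested, 2 with a lower and 3 with a higher mean in *Hif1aCKO* (median log2 fold change 0.008). The peptide gene *Cartpt* had 7650.5 and 6243 normalized counts in controls against 11310.0 to 17992 in *Hif1aCKO*. *Chgb* went the other way, with 5514 and 8695.5 against 776 to 4732, as did *Pnmt*, with 29.2 and 51.0 against 3.00 to 18.2. Of the sympathetic and chromaffin markers, DESeq2 called *Isl1* and *Cartpt*. Genes of dividing cells differed too, with a higher mean in *Hif1aCKO* for 12 of 12. At an unadjusted p-value under 0.05 in edgeR 10 of them were higher (3.83% of all genes), and DESeq2 called 6 (0.297% of all genes). Their summed levels were 523 and 485 CPM per kilobase of exon in controls and 720 to 933 in *Hif1aCKO*. Of 8 Schwann cell precursor markers, 5 were measured, with summed counts of 301 and 442 in controls and 180 to 1125 in *Hif1aCKO*. The highest sum belonged to *Hif1aCKO* replicate 3, which held 926 counts of *Fabp7* (0 to 9 elsewhere), 50 of *Erbb3* (0 to 2 elsewhere), and 8 of the defining gene *Sox10* (0 to 1 elsewhere). *Ngfr*, also on this list, was lowest in that replicate, with 58 counts against 248 and 409 in controls and 133 and 221 in *Hif1aCKO* replicates 4 and 5. Measured markers of mesenchyme (4 of 7) summed to 3 to 25 counts, of endothelium (2 of 6) to 1 to 41, of erythroid cells (1 of 6) to 8 to 31, and of sensory neurons (3 of 5) to 52 to 136 per library, with *Col1a1* at 0 in *Hif1aCKO* replicate 3 and *Kdr* at 0 in control replicate 5. The part of these markers in the results below was not tested. The normalized count of *Xist* was 4139 in control replicate 5 and 4929 in *Hif1aCKO* replicate 3 but 0.928 to 2.92 in the other libraries, so each group held libraries from both sexes.

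Most of the glucose and pyruvate genes had a lower mean in *Hif1aCKO* than in control neurons, and the step medians were lowest at the start of the pathway. Of the 40 rows, 28 were lower and 12 higher, with a median log2 fold change of -0.24. Over the 15032 genes tested, the median was 0.01 and 48.7% were lower. In the companion list described below, 39 of 56 genes were lower as well. By step, the median was -0.57 for glucose uptake (4 rows), -0.44 from hexokinase to triose phosphate (11), -0.08 for the Pfkfb enzymes (4), -0.13 from triose phosphate to pyruvate (8), -0.24 for lactate and monocarboxylates (5), and -0.29 for mitochondrial pyruvate (8). The members' median deviation from the mean over all 5 libraries was 0.09 and 0.19 on the log2 scale in controls, and 0.04, -0.21, and -0.05 in *Hif1aCKO*. The 2 groups did not overlap for 19 rows, 16 with each *Hif1aCKO* library below both controls and 3 with each above. The background for such a separation was 12.9% of all genes in the lower direction, 12.9% in the higher, and 25.7% in either.

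Genes were compared with the quasi-likelihood test of edgeR and called where the Benjamini-Hochberg adjusted p-value over all genes was under 0.05, the log2 fold change exceeded 0.3 in either direction, and normalized counts averaged 50 or more. By this rule 0 of the 40 rows were called, as were 0 of all genes (0%), and the smallest adjusted p-value of any gene was 0.446. At an unadjusted p-value under 0.05, 10 rows were lower and 0 higher, where 3.85% of all genes were lower and 3.83% higher. These 10 were *Slc2a1*, *Slc2a3*, *Gpi1*, *Pfkl*, *Pfkm*, *Pfkp*, *Aldoa*, *Aldoc*, *Ldhb*, and *Pdha1*. DESeq2, the tool used in the study, called 1 of the 40 rows with the same thresholds, *Slc2a3*, and 60 of all genes (0.297%). At an unadjusted p-value under 0.05 it found 11 lower, where 3.4% of all genes were lower. In 5 rows (*Slc2a4*, *Hk2*, *Aldoc*, *Pfkfb3*, and the second *Aldoa* identifier), the mean count was below 50, so they could not be called whatever their difference.

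The count of 10 rested heavily on single libraries. Without control replicate 6 it was 2 lower, *Slc2a3* and *Aldoc*, and 1 higher, *Eno2*, against 1.53% of all genes lower. Without control replicate 5, 6 were lower (2.72% of all genes), without *Hif1aCKO* replicate 4, 6 were lower and 1, *Slc16a7*, higher (3.75% lower), and without *Hif1aCKO* replicate 5, 6 were lower (3.3%). Without *Hif1aCKO* replicate 3, the library with the high *Fabp7* count, 12 were lower (6.76%). *Slc2a3* was among the lower genes each time. With bulk RNA, a lower level can reflect less RNA per cell or fewer cells of a type, and these cannot be told apart. Nor does a transcript count measure enzyme amount or glucose flux.

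**Figure D1:**
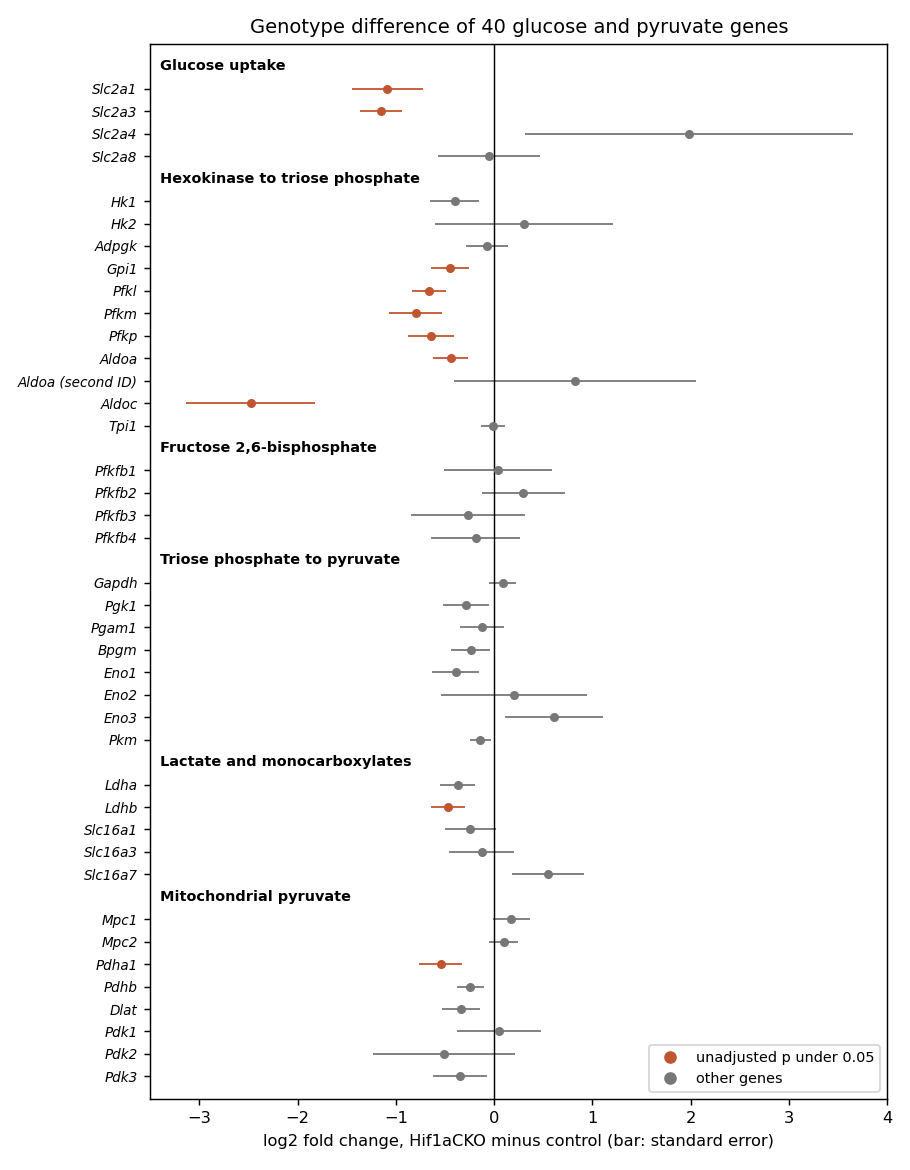
Log2 fold change (*Hif1aCKO* minus control, x axis) of the 40 rows, ordered by step of the pathway. Points are estimates of the edgeR fit, bars are standard errors, and the 10 genes in orange had an unadjusted p-value under 0.05, all to the left of 0. Estimates ranged from -2.48 for *Aldoc* to 1.98 for *Slc2a4*.

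Because HIF-1 binds DNA at a short core of the letters ACGTG or GCGTG, the 250 bases before the RefSeq transcription start (GRCm38.p6) were searched for these letters on both strands. A window was given for 37 of the 40 symbols. Either core was present in 29 of the 37 windows nearest the gene start (78.4%), compared with 38.6% of 32851 windows of all genes, and the members' windows were also richer in G and C (mean 60.4% against 53.2%). Among the 9 windows of genes with an unadjusted p-value under 0.05, 7 held a core (77.8%), and among the 27 windows of the other measured members, 21 did (77.8%), the remaining window being that of *Pdk4*. A match is a description of the sequence and not evidence of binding. The stretches below show the matches of 3 genes that were lower in *Hif1aCKO* and of 3 textbook HIF-1 targets that were not in that group of 10, each read in the direction of transcription, 5′ to 3′, with cores in capitals and 20 bases on each side where the window allowed. CACGTG reads the same on the other strand, so it holds a core on each.
Slc2a1 (chr4:119108664-119108733, plus strand): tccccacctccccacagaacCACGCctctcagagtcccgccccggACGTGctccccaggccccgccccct
Pfkp (chr13:6648772-6648927, minus strand): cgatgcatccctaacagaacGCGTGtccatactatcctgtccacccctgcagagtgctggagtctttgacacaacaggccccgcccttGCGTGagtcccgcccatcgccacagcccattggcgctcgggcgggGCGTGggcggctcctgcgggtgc
Aldoc (chr11:78323003-78323047, plus strand): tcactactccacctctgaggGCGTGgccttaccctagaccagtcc
Ldha (chr7:46845639-46845794, plus strand): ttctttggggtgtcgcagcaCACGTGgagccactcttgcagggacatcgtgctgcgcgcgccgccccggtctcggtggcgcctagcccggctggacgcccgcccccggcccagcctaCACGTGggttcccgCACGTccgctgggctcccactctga
Pgk1 (chrX:106186930-106186993, plus strand): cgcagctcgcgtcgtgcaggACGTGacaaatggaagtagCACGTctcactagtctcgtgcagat
Pdk1 (chr2:71873126-71873170, plus strand): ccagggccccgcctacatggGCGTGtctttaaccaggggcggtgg

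Among the glucose transporters, the abundant pair *Slc2a3* and *Slc2a1* had a lower count in each *Hif1aCKO* library than in both controls, whereas *Slc2a8* and *Slc2a4* overlapped between groups. *Slc2a3*, the neuronal glucose transporter, had 2673 and 4029 normalized counts in controls, and 1809, 1341, and 1378 in *Hif1aCKO*. The *Hif1aCKO* libraries lay close together below both controls, and the controls differed from each other by more than the *Hif1aCKO* libraries did. The log2 fold change was -1.15 (SE 0.21), with an adjusted p-value of 0.521 in edgeR and 0.000168 in DESeq2, and it was -0.83 without control replicate 6.

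*Slc2a1*, the widely expressed basal transporter, had 259 and 448 normalized counts in controls and 233, 142, and 126 in *Hif1aCKO*. Again the groups did not overlap, but *Hif1aCKO* replicate 3 came near control replicate 5, and its log2 fold change of -1.09 (SE 0.36, edgeR adjusted p = 0.621) shrank to -0.64 without control replicate 6. *Slc2a8*, an intracellular transporter, had 84.4 and 106 in controls and 70.8, 50.9, and 153 in *Hif1aCKO*, with both controls inside the *Hif1aCKO* range. *Slc2a4*, the insulin-responsive transporter of muscle and fat, was near the detection limit, with 1.04 and 8.35 normalized counts in controls and 0.0, 32.0, and 25.3 in *Hif1aCKO*. No difference could be resolved for it at this depth (log2 fold change 1.98, SE 1.67).

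In the steps from hexokinase to triose phosphate, 9 of 11 rows had a lower mean in *Hif1aCKO* (48.7% of all genes). Of these, 6 had an unadjusted p-value under 0.05 in edgeR, where 3.85% of all genes were lower. The products of the 3 phosphofructokinase genes assemble into the tetramer that commits glucose to glycolysis. Each of these genes was lower in each *Hif1aCKO* library than in both controls (12.9% of all genes). *Pfkl*, the liver-type subunit, had 697 and 785 normalized counts in controls and 481, 443, and 479.7 in *Hif1aCKO*. It had the tightest *Hif1aCKO* values of the 3, and its log2 fold change of -0.66 (SE 0.17, edgeR adjusted p = 0.586) lay between -0.75 and -0.58 with any 1 library removed.

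*Pfkm*, the muscle-type subunit, had 453 and 467 in controls and 257, 342, and 196 in *Hif1aCKO* (log2 fold change -0.80, SE 0.27, edgeR adjusted p = 0.621). Its controls were nearly equal and the spread lay within *Hif1aCKO*. Exons of *Gm26513* on the same strand cover 10.2% of *Pfkm*. *Pfkp*, the platelet-type subunit, had 1571 and 2173 in controls and 1122, 1517, and 957 in *Hif1aCKO* (log2 fold change -0.64, SE 0.23, edgeR adjusted p = 0.621), so that *Hif1aCKO* replicate 4 came close to control replicate 5. Without control replicate 6 its log2 fold change was -0.40. Summed per length, the 3 genes gave 40.8 and 48.0 CPM per kilobase of exon in controls and 26.6, 32.2, and 23.1 in *Hif1aCKO*. The share of each subunit in the sum overlapped between groups, with *Pfkl* at 28.0% to 29.2% in controls and 23.6% to 35.6% in *Hif1aCKO*.

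Both aldolase genes, which encode the enzyme that splits the 6-carbon sugar, were lower, but at very different levels. *Aldoc*, the brain-type aldolase, had 147 and 45.4 normalized counts in controls and 15.01, 13.0, and 23.4 in *Hif1aCKO*. The *Hif1aCKO* libraries were uniformly low, whereas the 2 controls differed from each other by more than the lower control differed from *Hif1aCKO*. Its log2 fold change was -2.48 (SE 0.65, adjusted p = 0.586 in edgeR and 0.101 in DESeq2) and ranged from -3.10 without control replicate 6 to -1.40 without control replicate 5. *Aldoa*, the ubiquitous aldolase, had 3908 and 5149.6 in controls and 3640.2, 2732, and 3640.1 in *Hif1aCKO* (log2 fold change -0.44, SE 0.18, edgeR adjusted p = 0.627). The groups did not overlap, but the gap between the nearest libraries was small, and the log2 fold change without control replicate 6 was -0.23. A second identifier also named *Aldoa*, upstream of the main one on chromosome 7, had from 1.95 to 16.0 normalized counts with overlapping groups. *Aldoc* made up 3.24% and 0.781% of the summed per-length aldolase level in controls and 0.367%, 0.422%, and 0.569% in *Hif1aCKO*.

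*Gpi1*, which converts the glucose phosphate to its fructose isomer, had 1432 and 1666 normalized counts in controls and 1388, 979, and 1044 in *Hif1aCKO*. Here *Hif1aCKO* replicate 3 was only just below the lower control (log2 fold change -0.45, SE 0.19, edgeR adjusted p = 0.647). An antisense gene, *Gm26762*, covers 11.5% of its exons. Reads in this part cannot be assigned to 1 of the 2 genes, since the counting was run with default parameters, which ignore strand. *Hk1*, the main neuronal hexokinase, had 797 and 607 in controls and 649, 551, and 393 in *Hif1aCKO*, with *Hif1aCKO* replicate 3 above control replicate 6 (log2 fold change -0.40, SE 0.25). The inducible hexokinase *Hk2* had only 10.7 to 41.8 normalized counts, and the ADP-dependent glucokinase *Adpgk* 357 to 471, both with overlapping groups. *Tpi1*, which interconverts the triose phosphates, was nearly level across the libraries, with 2564 and 2762 in controls and 2743, 2525, and 2654 in *Hif1aCKO* (log2 fold change -0.01, SE 0.13).

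**Figure D2:**
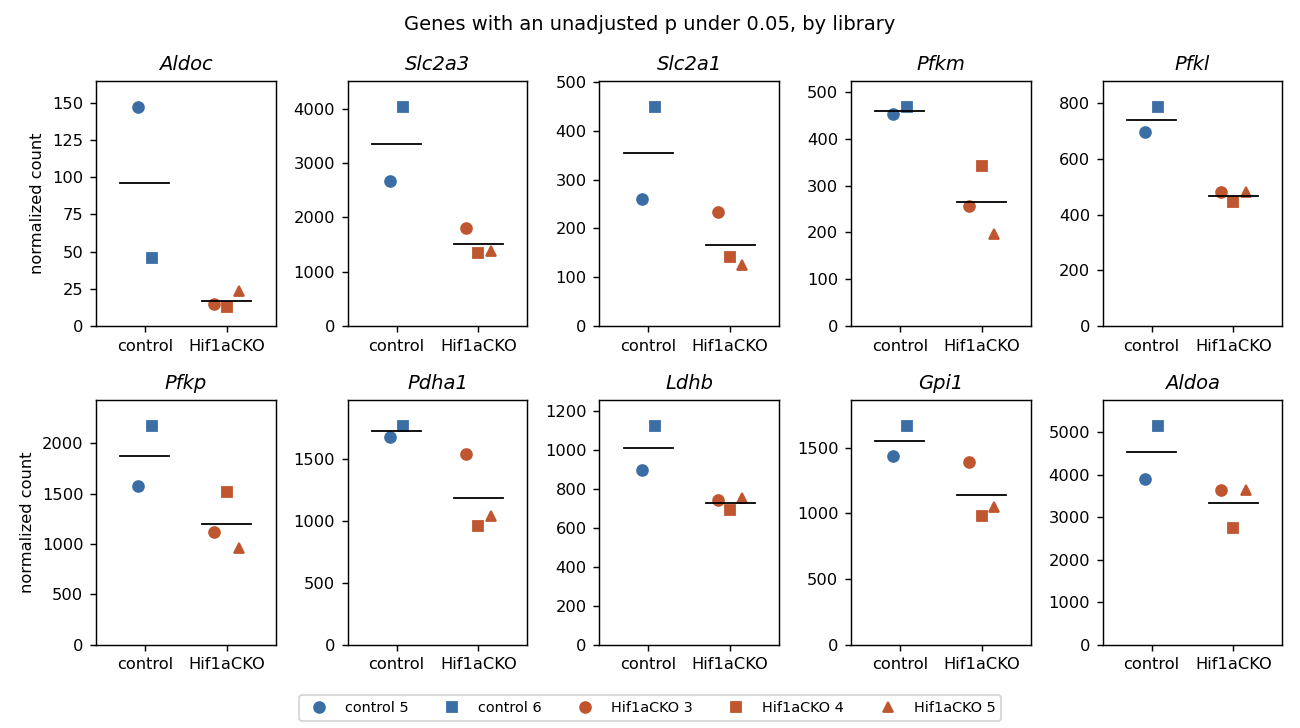
Normalized count (y axis, from 0) of the 10 genes with an unadjusted p-value under 0.05 in each library, with controls in blue, *Hif1aCKO* in orange, and a line at each group mean. For each gene the 3 *Hif1aCKO* libraries lie below both controls, and for *Slc2a3*, *Slc2a1*, *Pfkp*, *Ldhb*, and *Aldoa* control replicate 6 stands well above control replicate 5.

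The 4 Pfkfb genes encode the bifunctional enzymes that make and remove a regulatory fructose bisphosphate, an allosteric activator of phosphofructokinase. This compound is not the sugar that aldolase splits. In contrast to phosphofructokinase itself, 2 of them had a lower and 2 a higher mean in *Hif1aCKO*, and 0 had an unadjusted p-value under 0.05. *Pfkfb4* was the most abundant per length, with 144 and 91.8 normalized counts in controls and 139, 57.9, and 113 in *Hif1aCKO*. *Pfkfb3*, a hypoxia-inducible kinase-dominant form, had 51.0 and 47.3 in controls and 35.4, 60.9, and 26.3 in *Hif1aCKO*. *Pfkfb1* overlapped between groups as well, from 34.3 to 77.1. Only *Pfkfb2*, the heart-type form, did not overlap, but with 72.3 in control replicate 6 and 72.9 in *Hif1aCKO* replicate 3 the groups touched (log2 fold change 0.30, SE 0.42). Exons of *Gm29427* on the same strand cover 17.4% of *Pfkfb2*.

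The steps from triose phosphate to pyruvate showed smaller differences than those from hexokinase to triose phosphate, with log2 fold changes between -0.39 and 0.61, and 0 of 8 rows had an unadjusted p-value under 0.05. *Gapdh*, which oxidizes the triose phosphate, had 2971 and 2580.3 normalized counts in controls and 3016, 2735, and 3093 in *Hif1aCKO* (log2 fold change 0.09, SE 0.14). *Pkm*, which makes pyruvate, had 8632 and 8729 in controls and 8482, 7269, and 7842 in *Hif1aCKO* (log2 fold change -0.14, SE 0.11). Each *Hif1aCKO* value of *Pkm* was below both controls, by a small margin in *Hif1aCKO* replicate 3. *Pgk1*, the first ATP-forming enzyme of the pathway, had 821 and 838 in controls and 751, 488, and 799.8 in *Hif1aCKO*, and its lower mean came mostly from *Hif1aCKO* replicate 4 (log2 fold change -0.29, SE 0.23).

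*Eno1*, the ubiquitous enolase, had 3213 and 4410.3 normalized counts in controls and 3811, 2177, and 2739 in *Hif1aCKO* (log2 fold change -0.39, SE 0.24), so the groups overlapped. The neuronal enolase *Eno2* was scarce and uneven, from 16.7 to 117 within controls and 53.6 to 106 in *Hif1aCKO*. The muscle-type *Eno3* had 32.3 and 52.9 in controls and 72.9, 53.9, and 68.1 in *Hif1aCKO* (log2 fold change 0.61, SE 0.50). As a share of the summed per-length enolase level, *Eno1* gave 96.4% and 93.7% in controls and 93.0%, 89.8%, and 89.2% in *Hif1aCKO*, and *Eno3* 3.00% and 3.47% against 5.50%, 6.88%, and 6.86%. *Pgam1* (283 to 367) and *Bpgm* (560.5 to 863), the mutases, overlapped between groups. Several of these genes have processed copies in the genome. Of all 50-base stretches of their transcripts, 53.9% in *Pgk1*, 36.2% in *Pgam1*, 26.0% in *Eno1*, and 25.1% in *Gapdh* also occur in other annotated genes. Because reads that map to several places were not counted, the level of these genes is uncertain. In *Pkm* the share was 25.8%, but the gene sharing most with it was *Gm49759*. Exons of *Gm49759* on the same strand cover 15.3% of *Pkm*, so part of this share is the same genomic position annotated under both names. Reads in this part cannot be assigned to either gene alone, so the level of *Pkm* is uncertain too.

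Both subunits of lactate dehydrogenase had a lower count in each *Hif1aCKO* library than in both controls, but only *Ldhb* had an unadjusted p-value under 0.05. *Ldhb*, the heart-type subunit, had 897 and 1126 normalized counts in controls and 742, 695, and 756 in *Hif1aCKO* (log2 fold change -0.47, SE 0.17, edgeR adjusted p = 0.621). *Ldha*, the muscle-type subunit and a classical HIF-1 target, had 2437 and 2938 in controls and 2394, 1691, and 2158 in *Hif1aCKO* (log2 fold change -0.37, SE 0.18, edgeR adjusted p = 0.69). Without control replicate 6 the log2 fold changes were -0.30 for *Ldhb* and -0.23 for *Ldha*, and *Ldhb* was no longer under that threshold. The top *Hif1aCKO* library was close to the lower control for *Ldha* and further from it for *Ldhb*. Per length, the balance of the subunits did not differ between groups by more than the spread within them, with *Ldha* at 56.3% and 55.3% of the sum in controls and 60.5%, 53.6%, and 57.5% in *Hif1aCKO*. Of the transcript of *Ldhb*, 20.99% of 50-base stretches occur in 1 other gene, *Gm5514*.

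None of the 3 monocarboxylate transporters separated the groups by normalized count. *Slc16a1*, the main carrier, had 532 and 698 in controls and 677, 488, and 395 in *Hif1aCKO*. *Slc16a3*, the lactate exporter of glycolytic cells and a known HIF-1 target, had 192 and 154 in controls and 132, 134, and 209 in *Hif1aCKO*. *Slc16a7*, the high-affinity neuronal form, had 103 and 140.1 in controls and 205, 116, and 213 in *Hif1aCKO* (log2 fold change 0.55, SE 0.37). Its share of the summed per-length transporter level was 5.28% and 5.96% in controls and 8.87%, 6.74%, and 12.3% in *Hif1aCKO*.

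Of the 8 measured genes that handle pyruvate in mitochondria, 4 were lower in each *Hif1aCKO* library than in both controls (12.9% of all genes). These were *Pdha1*, *Pdhb*, and *Dlat* of the pyruvate dehydrogenase complex and the kinase gene *Pdk3*. By contrast, 1 gene, the carrier subunit *Mpc2*, was higher in each *Hif1aCKO* library than in both controls (12.9% of all genes). The other subunits of the complex, from the companion list described below, overlapped between groups, with log2 fold changes of -0.10 (SE 0.31) for *Pdhx* and -0.03 (SE 0.18) for *Dld*. *Pdha1*, the X-linked catalytic subunit, had 1676 and 1765 normalized counts in controls and 1541, 957, and 1040.2 in *Hif1aCKO* (log2 fold change -0.55, SE 0.22, edgeR adjusted p = 0.626). *Hif1aCKO* replicate 3 lay near the controls and replicates 4 and 5 well below. In the libraries with high *Xist* the values were 1676 (control) and 1541 (*Hif1aCKO*), and in those with low *Xist* 1765 (control) and 957 and 1040.2 (*Hif1aCKO*). These splits hold 1 library in an arm and have no test. Antisense exons of *Map3k15* cover 16.2% of *Pdha1*. *Pdhb* had 2438 and 2787 in controls and 2369.6, 2084, and 2161 in *Hif1aCKO*, and *Dlat* 1093 and 1157 against 1078, 825, and 766, with log2 fold changes of -0.24 (SE 0.14) and -0.34 (SE 0.19).

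The pyruvate carrier subunits *Mpc1* and *Mpc2* had higher means in *Hif1aCKO*, by less than 2 SE. *Mpc2* had 1178 and 1192 in controls and 1263, 1320.1, and 1217 in *Hif1aCKO* (log2 fold change 0.10, SE 0.15), and *Mpc1* had 736 and 650.2 against 812, 665, and 873 (log2 fold change 0.18, SE 0.19). Antisense exons of *4930506C21Rik* cover 23.05% of *Mpc1*. Among the pyruvate dehydrogenase kinases, which switch the complex off, *Pdk1*, a classical HIF-1 target, had 81.2 and 91.8 in controls and 84.7, 61.9, and 122 in *Hif1aCKO* (log2 fold change 0.05, SE 0.42). *Pdk3*, the most abundant of the kinases per length, had 204 and 197 in controls and 140.5, 161, and 171 in *Hif1aCKO* (log2 fold change -0.35, SE 0.27). *Pdk2* ranged from 57.3 to 101 in controls and from 15.6 to 103 in *Hif1aCKO*, so the groups overlapped.

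Levels of different genes were compared per kilobase of exonic length, as the CPM (library-size-scaled count) divided by that length. By this measure *Pkm* had the highest mean over the 5 libraries (187), followed by *Aldoa* (149.8), whose range overlapped with those of *Pkm* and of *Tpi1* (110.0), then *Ldha* (80.2) and *Gapdh* (79.6), which overlapped with each other, and *Pdhb* (70.1) and *Eno1* (69.5), which overlapped too. The first committed steps were far less abundant, with *Pfkp* at 12.5, *Pfkm* at 11.7, *Pfkl* at 9.88, and *Hk1* at 8.03. Among the transporters, *Slc2a3* (35.4) stood above *Slc2a1* (7.87), *Slc2a8* (3.31), and *Slc2a4* (0.438). It gave 78.6% and 77.3% of the summed per-length level of the 4 transporters in controls and 73.8%, 73.9%, and 67.7% in *Hif1aCKO*. That sum was 53.7 and 82.2 in controls and 38.6, 28.6, and 32.1 in *Hif1aCKO*. The neuronal and inducible isozymes *Eno2* (1.77), *Aldoc* (1.71), and *Hk2* (0.404) were at the low end.

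**Figure D3:**
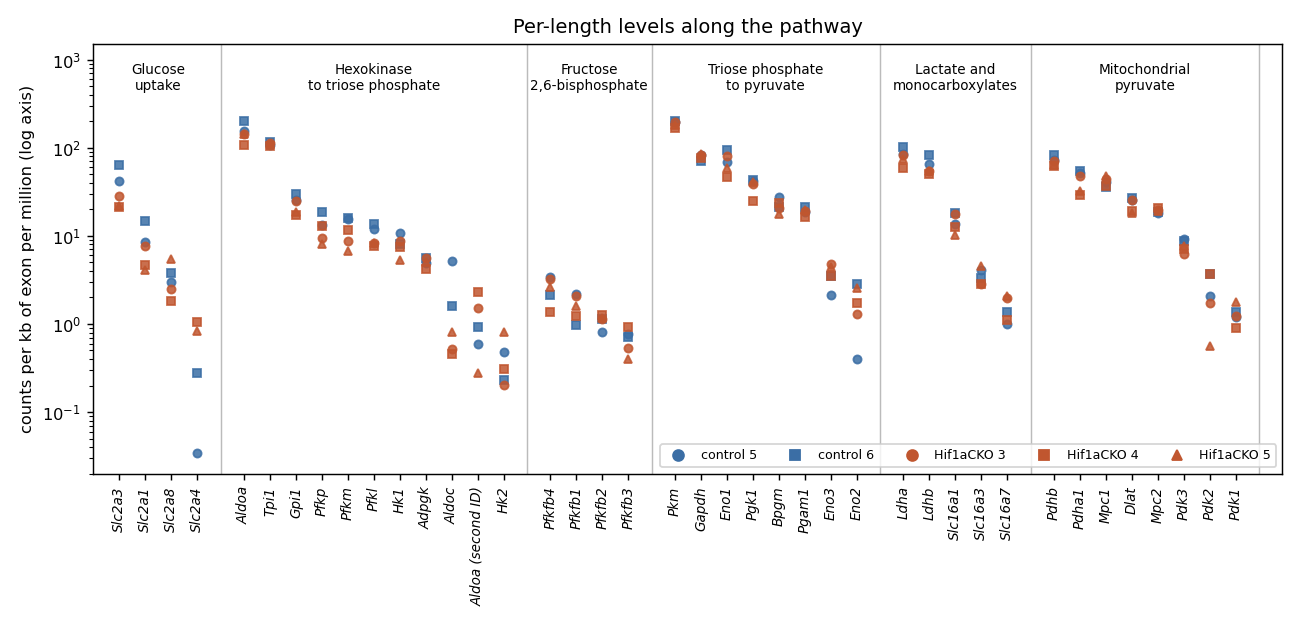
Per-length level (CPM per kilobase of exon, log axis) of each row in each library, grouped by step and sorted by mean level within a step. Blue symbols are controls and orange symbols *Hif1aCKO*, and the 0 of *Slc2a4* in *Hif1aCKO* replicate 3 cannot be drawn on a log axis. Means span from 0.404 for *Hk2* to 187 for *Pkm*, and within the glucose uptake step the blue points of *Slc2a3* and *Slc2a1* lie above the orange ones.

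**Figure D4:**
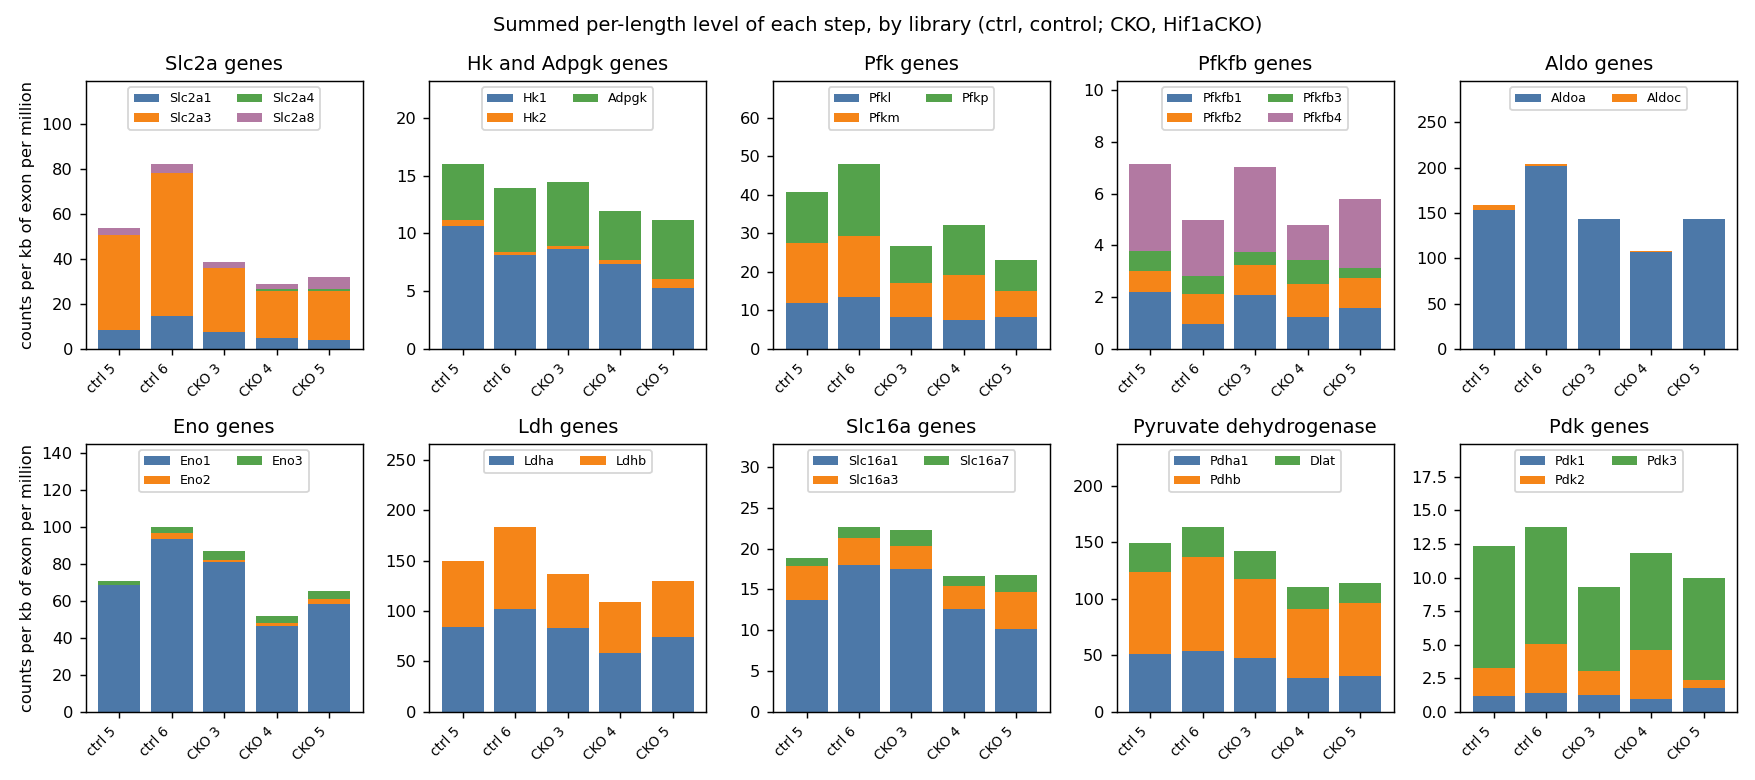
Summed per-length level (CPM per kilobase of exon, y axes from 0 with a scale of their own) of the genes of 10 steps in each library, with 1 color per gene. The bars of the Slc2a, Pfk, Aldo, Ldh, pyruvate dehydrogenase, and Pdk genes are lower in the 3 *Hif1aCKO* libraries than in both controls, and those of the hexokinase (with *Adpgk*), Pfkfb, Eno, and Slc16a genes overlap.

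As a comparison, a companion list of other genes around the pathway held 65 measured genes of 72 symbols, of which 56 were tested. Of these, 39 had a lower and 17 a higher mean in *Hif1aCKO*, with a median log2 fold change of -0.12. At an unadjusted p-value under 0.05, 2 were lower and 2 higher (3.57% each), close to the 3.85% and 3.83% of all genes. *Slc2a6*, a lysosomal glucose transporter, had 125 and 132 normalized counts in controls and 77.2, 19.97, and 32.1 in *Hif1aCKO* (log2 fold change -1.58, SE 0.58, edgeR adjusted p = 0.621). *Pdp2*, a phosphatase that switches pyruvate dehydrogenase back on, had 742 and 896 in controls and 602, 446, and 614 in *Hif1aCKO* (log2 fold change -0.56, SE 0.20, edgeR adjusted p = 0.621). *Rpia*, of the pentose phosphate pathway, and *Slc25a13*, a mitochondrial aspartate and glutamate carrier, were the 2 with higher means. The genes of basigin, the chaperone of the lactate carriers (*Bsg*, log2 fold change -0.11, SE 0.11), and of citrate synthase (*Cs*, log2 fold change -0.17, SE 0.18) differed by less than 2 SE.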

How the data were processed

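The data are RNA-seq libraries of 100 sorted sympathetic neurons each. The authors trimmed reads with cutadapt (version 1.18) and Trimmomatic, removed ribosomal and vector reads with bowtie (version 1.2.2) and SortMeRNA, mapped to GRCm38 with STAR (version 2.7.0c), and deposited raw counts per gene from Rsubread without multi-mapping reads. Libraries were grouped by the labelled genotype, and 0 columns belonged to other samples.

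Genotypes were compared in R (version 4.3.3) by edgeR (version 4.0.16), using TMM factors, filterByExpr, the quasi-likelihood test, and Benjamini-Hochberg adjustment over 15032 genes. Standard errors were derived from the log2 fold change and F statistic. With 2 libraries against 3, the smallest exact two-sided permutation p-value is 0.1. The p-values measure the spread between these libraries. Fits were tested on simulated data. As alternatives, upper-quartile or RLE factors replaced TMM, DESeq2 (version 1.42.0), limma-voom (limma version 3.58.1), or the likelihood ratio test replaced the main test, the count filter was dropped or set to 10 counts per library, the mean count was not limited, the adjusted p-value was set at 0.1, and each library was left out. Where 1 control library was left, it was assumed to vary like the other group.

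Gene names, positions, and exonic lengths came from GENCODE M21 (GRCm38), and promoter windows from RefSeq. Plots were drawn with matplotlib (version 3.10.9), and tables were made with pandas (version 2.3.3) and numpy (version 2.4.6) under Python (version 3.11.15). Each listed symbol was to be named, and from the companion list those with an unadjusted p-value under 0.05. Other companion genes were named after their values were seen. The members, companion genes, and markers were chosen with earlier results of these data known.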

Additional observations from a re-analysis of the deposited data

How the results depend on the processing

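Of 474 pairs of a gene and an alternative, 451 kept the direction and the side of the threshold, 2 moved past the threshold, and 21 reversed, in 10 genes whose log2 fold change was at most 0.30 in size; 0 of the 10 genes with an unadjusted p-value under 0.05 reversed. Over all genes, DESeq2 called 60, the likelihood ratio test of edgeR 40, and the fits without 1 library 0 to 4. Of the members, DESeq2 and the likelihood ratio test each called 1, *Slc2a3* (log2 fold change -1.15 in both, adjusted p = 0.000168 and 0.0027). The members with an unadjusted p-value under 0.05 in either direction numbered 3 to 12 without 1 library and 9 to 11 in the other alternatives, and the median log2 fold change stayed between -0.27 and -0.19. *Tpi1* reversed to 0.022 with upper-quartile normalization and *Pdk1* to -0.0044 with limma-voom. Leaving out 1 library reversed *Slc2a8* (-0.64 to 0.23), *Hk2* (-0.46 to 0.91), *Adpgk* (-0.17 to 0.031), *Tpi1* (-0.067 to 0.037), *Pfkfb1* (-0.44 to 0.73), *Pfkfb4* (-0.48 to 0.17), *Gapdh* (-0.017 to 0.19), *Eno2* (-0.61 to 2.19), *Slc16a3* (-0.38 to 0.038), and *Pdk1* (-0.24 to 0.25). The cause was not tested. No paired analysis was possible because the sample labels do not say which libraries, if any, belong together. Genes under about 50 normalized counts had standard errors above 0.5, so small differences in them were not detectable at this depth.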

Other observations

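Glucose phosphate can leave glycolysis for the pentose phosphate pathway, which yields NADPH and ribose. Of 8 genes of that pathway, 3 had a lower and 5 a higher mean in *Hif1aCKO*, with a median log2 fold change of 0.08, and 0 passed the call rule of edgeR. *G6pdx*, the X-linked entry enzyme, had 523 and 399 normalized counts in controls and 307, 409, and 249.1 in *Hif1aCKO* (log2 fold change -0.52, SE 0.27), with overlapping groups. *Rpia*, which makes ribose phosphate, had 9.37 and 12.1 in controls and 23.6, 86.9, and 24.3 in *Hif1aCKO* (log2 fold change 2.05, SE 0.88, edgeR adjusted p = 0.647), and the highest value stood in *Hif1aCKO* replicate 4 alone. *Pgd*, by contrast, was nearly level, with 716 and 716 in controls and 728, 765, and 792 in *Hif1aCKO*.

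For glycogen, 14 genes were tested, of which 10 had a lower and 4 a higher mean in *Hif1aCKO* (median log2 fold change -0.20) and 0 an unadjusted p-value under 0.05. The brain-type phosphorylase *Pygb* had 587 and 567 in controls and 539, 513, and 358 in *Hif1aCKO*, and the liver-type *Pygl* 87.5 and 33.4 against 36.5, 14.98, and 12.6. Of 9 genes tested that shuttle cytosolic NADH into mitochondria, 7 had a lower and 2 a higher mean (median log2 fold change -0.14). *Slc25a13* had 43.7 and 65.9 in controls and 151, 152, and 70.1 in *Hif1aCKO* (log2 fold change 1.178, SE 0.48, edgeR adjusted p = 0.63), whereas its paralog *Slc25a12* had 606 and 754 against 638, 454, and 569. The abundant malate dehydrogenases *Mdh1* and *Mdh2* had log2 fold changes of -0.07 (SE 0.15) and -0.07 (SE 0.12).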
